A study of Rattus norvegicus with 36 samples.

Results

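The transcripts of 7 matrix metalloproteinases (MMPs) and 3 tissue inhibitors of metalloproteinases (TIMPs) were followed in H9C2 cells, a rat cardiac myoblast line. The genes were *Mmp2*, *Mmp3*, *Mmp9*, *Mmp10*, *Mmp13*, *Mmp14*, *Mmp19*, *Timp1*, *Timp2* and *Timp3*. They were chosen by name, with earlier results of these data known, and all 10 were found among the 24275 genes listed in the deposited tables. Of these, 6 passed the filter on low counts in every comparison of a pair of groups, and *Mmp3*, *Mmp9*, *Mmp10* and *Mmp13* did not.

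MMPs are zinc-dependent endopeptidases that cleave collagens, other matrix proteins, growth factors and receptors, and most are secreted or displayed as inactive proenzymes. *Mmp14* is a membrane-type MMP that, together with *Timp2*, activates the proenzyme of the gelatinase *Mmp2* at the cell surface. TIMPs bind the active site of MMPs and block it, and the balance of enzymes and inhibitors is known to shape matrix remodelling in the heart after ischemia.

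Cells were transfected for 24 h with a mimic at 25 nmol/L and then cultured for another 24 h in hypoxia (below 0.2% oxygen, serum-free low-glucose DMEM) or in normoxia (fresh DMEM). The mimics were a mimic control (MC), canonical miR-125b, and 4 isomiRs of it with an altered 3′ end, named Trim AGU, Trim AG, Trim A and Plus A, with 3 libraries in each of the 12 combinations of mimic and oxygen. Counts of 33 libraries from 11 groups were used here, with totals of 28361216 to 42672584, and Normoxia MC enters only as the authors' group means. Oxygen and medium changed together, so their parts in a difference between hypoxia and normoxia cannot be told apart. All groups are a single transfected cell line, nothing in the labels says that the replicates of a group were separate cultures, and p-values therefore measure the spread between these libraries, which may be technical. In bulk RNA a lower level cannot be split into fewer expressing cells and less RNA per cell.

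The mimics differ at the 3′ end and share the seed, bases 2 to 8, which is in capitals below. Their sequences are shown because every comparison of isomiRs with miR-125b rests on these few bases. The miR-125b sequence is rno-miR-125b-5p from RefSeq (GRCr8, chr11:29732588-29732609, plus strand), and the isomiRs were built from it with the bases in their names, the trimmed bases being read from the 3′ end inward. Trim AGU is 19 bases long, Trim AG 20, Trim A 21, canonical miR-125b 22 and Plus A 23.
miR-125b: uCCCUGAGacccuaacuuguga
Plus A: uCCCUGAGacccuaacuugugaa
Trim A: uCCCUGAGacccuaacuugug
Trim AG: uCCCUGAGacccuaacuugu
Trim AGU: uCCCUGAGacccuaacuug

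The libraries of replicate 1 of Normoxia Plus A and of Normoxia miR-125b went against their groups. *Cav1*, used as a check of labels, was at 268.9, 97.95 and 98.3 CPM (counts scaled to a common library total) in Normoxia Plus A 1, 2 and 3, and at 102.3, 282 and 262.9 CPM in Normoxia miR-125b 1, 2 and 3. In hypoxia it was at 93.87 to 100.2 CPM in Plus A and 241.2 to 246.2 CPM in miR-125b. For the comparisons that use them, values without them are given beside the called members. Libraries of the Trim isomiRs in hypoxia spread most, with a mean chi-square per gene between replicates of 95.8 in Trim A, 106.6 in Trim AG and 255.5 in Trim AGU, against 10.6 to 49.9 in the other 8 groups. Of the 8 muscle markers, 6 had a median of at least 1 CPM, with *Myod1* and *Myog* in every library, while *Myf5* was at 0 in 30 libraries. Among cardiac factors *Gata4* and *Hand2* were present, *Nkx2-5* stayed below 1 CPM and *Tbx5* was at 0 in 25 libraries. Summed muscle markers were 963.2 to 978.2 CPM in Hypoxia MC and 158.8 to 347.9 CPM in all other groups, and their part in the differences against MC was not tested. The 5 macrophage and neutrophil markers, from cells known to make *Mmp9*, summed to 1.12 to 3.16 CPM. *Ptprc* was at 0 in 15 libraries, *Adgre1* in 30, *Mpo* in 8 and *Itgam* in 1. *Cd68* was counted in every library, at 0.493 to 2.43 CPM.

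As group means per unit of gene length, *Mmp14* was the most abundant of the 7 MMP transcripts followed and *Timp2* of the 3 TIMPs. On the authors' FPKM scale, which divides by gene length, *Mmp14* ranged from 24.3 to 207.4 over the 33 libraries, ahead of *Mmp19* at 20.0 to 55.6 and *Mmp2* at 0.871 to 9.18. *Timp2* ranged from 266 to 541.2 FPKM, *Timp1* from 81.2 to 220.2 and *Timp3* from 5.96 to 15.7. Among the members, the order *Mmp14*, *Mmp19*, *Mmp2* left a gap between *Mmp19* and *Mmp2*, whose ranges did not meet. Those of *Mmp14* and *Mmp19* overlapped. *Mmp14* was below *Mmp19* in Hypoxia Trim AG 2 (24.3 and 27.0 FPKM) and in Hypoxia Trim AGU 2 (38.6 and 44.0 FPKM). MMPs outside the members were not placed in this order. The order of the 3 inhibitors had no overlap between neighbours. *Mmp14* made up 86.8% ± 1.36 (SD, n = 3) of the summed FPKM of the 7 MMPs in Normoxia Plus A and 51.7% ± 6.15 (SD, n = 3) in Hypoxia Trim AGU. *Timp2* made up between 63.6% (Normoxia Trim AG) and 83.6% (Hypoxia MC) of the summed FPKM of the 3 TIMPs, as group means. The ratio of *Mmp14* to *Timp2* FPKM within a library was 0.503 ± 0.032 (SD, n = 3) in Normoxia miR-125b and 0.498 ± 0.018 (SD, n = 3) in Normoxia Plus A, which overlapped, and 0.112 ± 0.021 (SD, n = 3) in Hypoxia Trim AG, the lowest group mean.

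**Figure D1:**
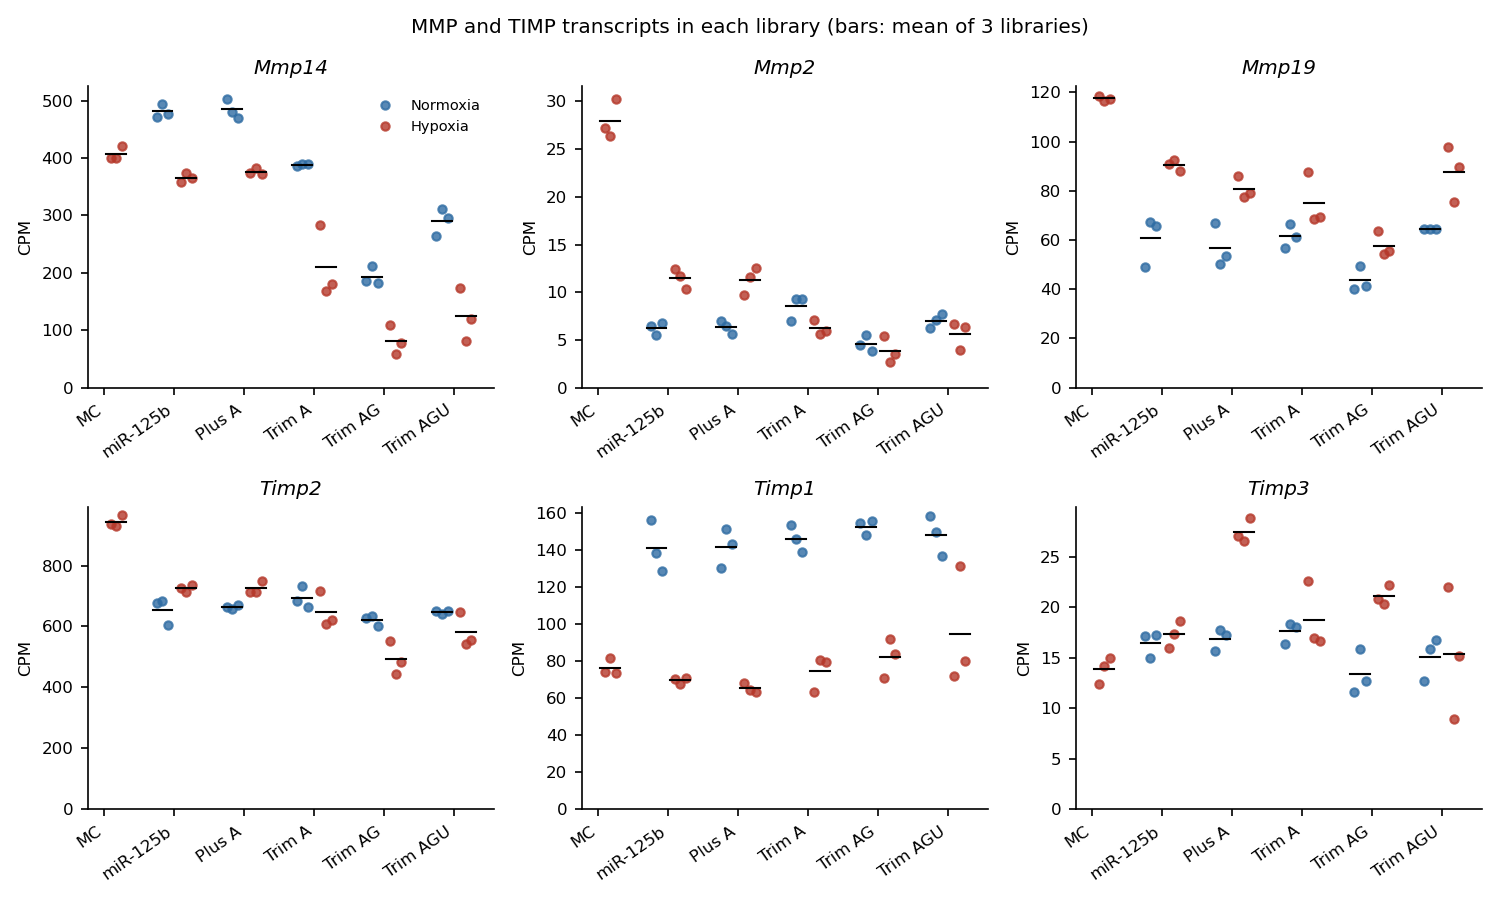
CPM (counts scaled to a common library total, linear axes from 0) of the 6 members that passed the filter, in each of 33 libraries, by mimic and oxygen. Points are libraries and bars the means of 3, and Mmp2 in Hypoxia MC (26.4 to 30.24 CPM) stands above the libraries of all other groups, while Timp1 is lower in hypoxia under each mimic and Normoxia MC is not plotted.

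*Mmp14*, the membrane-type MMP, was lowest with Trim AG and next lowest with Trim AGU in both oxygen conditions. In hypoxia its levels were 399.2, 399.9 and 421.0 CPM with MC, 357.9, 374.0 and 364.8 CPM with miR-125b and 374.4, 382.2 and 372.2 CPM with Plus A. With Trim A they were 282.4, 169.0 and 180.7 CPM, with Trim AG 108.5, 59.36 and 78.15 CPM and with Trim AGU 173.2, 80.48 and 119.6 CPM. All 9 libraries of the Trim isomiRs were thus below all 9 of MC, miR-125b and Plus A, and replicate 1 was the highest library in each Trim group. In normoxia the levels were 471.8, 494.8 and 476.8 CPM with miR-125b, 503.2, 480.9 and 470.3 CPM with Plus A and 386.5, 388.7 and 390.1 CPM with Trim A. They were 185.2, 212.0 and 182.4 CPM with Trim AG and 263.5, 311.7 and 294.8 CPM with Trim AGU. Only Plus A overlapped miR-125b in normoxia. The lowest and highest group means, Hypoxia Trim AG and Normoxia Plus A, were 5.91-fold apart, though without their replicate 1 libraries Normoxia Plus A (475.6 CPM) was below Normoxia miR-125b (485.8 CPM). In the order of group means, these neighbours overlapped: Normoxia Plus A and miR-125b, Hypoxia Plus A and miR-125b, Hypoxia Trim A with both Normoxia Trim AGU above it and Normoxia Trim AG below it, and Hypoxia Trim AGU and Trim AG.

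*Mmp2*, the gelatinase that *Mmp14* activates, was highest with MC. In hypoxia its levels were 27.21, 26.4 and 30.24 CPM with MC, 12.48, 11.74 and 10.36 CPM with miR-125b and 9.658, 11.6 and 12.52 CPM with Plus A. With Trim A they were 7.114, 5.604 and 5.97 CPM, with Trim AG 5.423, 2.679 and 3.539 CPM and with Trim AGU 6.693, 3.891 and 6.344 CPM. No library of another group reached the lowest of Hypoxia MC, while Trim AGU overlapped both Trim A and Trim AG, and Trim A lay above Trim AG with no overlap. In normoxia the levels were 6.473, 5.533 and 6.742 CPM with miR-125b, 6.94, 6.505 and 5.614 CPM with Plus A and 7.017, 9.335 and 9.278 CPM with Trim A. They were 4.448, 5.472 and 3.863 CPM with Trim AG and 6.235, 7.068 and 7.762 CPM with Trim AGU. Trim AG was the lowest group in either condition, and the group means of Hypoxia MC and Hypoxia Trim AG were 7.20-fold apart. In the order of group means, every group below Hypoxia MC overlapped its neighbour except Hypoxia Plus A, whose lowest library (9.658 CPM) lay above the highest of Normoxia Trim A (9.335 CPM). *Mmp19*, an MMP of broad substrate range, had group means of 43.7 ± 5.02 CPM (Normoxia Trim AG) to 117.6 ± 1.1 CPM (Hypoxia MC), each as SD with n = 3.

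*Timp1*, an inducible secreted inhibitor, was lower in hypoxia, with overlapping levels between most mimics. Its normoxia levels were 156.0, 138.3 and 128.6 CPM with miR-125b, 130.4, 151.3 and 143.3 CPM with Plus A and 153.4, 145.9 and 138.8 CPM with Trim A. They were 154.4, 147.8 and 155.4 CPM with Trim AG and 158.1, 149.7 and 136.4 CPM with Trim AGU. All 15 normoxia libraries overlapped between mimics in the range of 128.6 to 158.1 CPM. In hypoxia the levels were 74.18, 81.44 and 73.41 CPM with MC, 70.09, 67.72 and 70.68 CPM with miR-125b and 67.97, 64.27 and 63.32 CPM with Plus A. With Trim A they were 63.45, 80.58 and 79.64 CPM, with Trim AG 70.74, 91.96 and 83.73 CPM and with Trim AGU 71.81, 131.4 and 80.21 CPM. Hypoxia Trim AGU 2 stood apart from the other hypoxia libraries, the next highest being at 91.96 CPM, and it reached the range of normoxia. This library also had the fewest genes with a count, 16981 against 18342 to 19451 in all others.

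*Timp3*, the inhibitor that is held in the extracellular matrix, was highest in Hypoxia Plus A. Its hypoxia levels were 12.4, 14.21 and 15 CPM with MC, 15.98, 17.29 and 18.6 CPM with miR-125b and 27.04, 26.54 and 28.86 CPM with Plus A. With Trim A they were 22.63, 16.94 and 16.69 CPM, with Trim AG 20.77, 20.28 and 22.19 CPM and with Trim AGU 21.99, 8.911 and 15.13 CPM. The 3 Hypoxia Plus A libraries lay above all 30 others. In normoxia *Timp3* was at 17.16, 14.93 and 17.2 CPM with miR-125b, at 15.66, 17.72 and 17.28 CPM with Plus A and at 11.64 to 18.37 CPM with the Trim isomiRs. *Timp2*, the inhibitor that takes part in the activation of pro-*Mmp2*, was at 929.1 to 964.6 CPM with MC in hypoxia and at 442.5 to 748.7 CPM in the other 30 libraries. Its lowest group mean was 492.3 ± 55.5 CPM (SD, n = 3), in Hypoxia Trim AG.

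Against MC in hypoxia, the question was how each mimic changed the enzymes and inhibitors. Calls needed an adjusted p (Benjamini-Hochberg, over all genes tested) below 0.05 together with a fold change of 1.5 or more, and changes are given as log2 fold changes ± SE. *Mmp2* fell with all 5 mimics. The change was -1.24 ± 0.08 with miR-125b (adjusted p = 2.6e-07), -1.29 ± 0.10 with Plus A (adjusted p = 3.0e-06) and -2.12 ± 0.11 with Trim A (adjusted p = 7.4e-06). It was -2.79 ± 0.21 with Trim AG (adjusted p = 1.2e-05) and -2.18 ± 0.19 with Trim AGU (adjusted p = 8.8e-04). *Mmp14* fell by 0.91 ± 0.17 with Trim A (adjusted p = 0.0027), by 2.25 ± 0.18 with Trim AG (adjusted p = 1.7e-05) and by 1.59 ± 0.23 with Trim AGU (adjusted p = 0.0042). With miR-125b and Plus A it was at -0.12 ± 0.03 and -0.09 ± 0.04, under the fold threshold. *Mmp19* fell with Trim AG (-0.96 ± 0.08, adjusted p = 1.6e-05) and with Trim A (-0.60 ± 0.10, adjusted p = 0.0011), close to the threshold, and in the latter it was at -0.55 without Hypoxia Trim A 2 and -0.55 without Hypoxia Trim A 3, no longer called. Under the fold threshold, *Mmp19* was also lower with miR-125b (-0.34 ± 0.03, adjusted p = 4.6e-06) and Plus A (-0.52 ± 0.05, adjusted p = 2.0e-05). With Trim AGU it was at -0.29 ± 0.09 (adjusted p = 0.058).

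Among the inhibitors, *Timp3* rose with Plus A (1.01 ± 0.08, adjusted p = 4.8e-06) and with Trim AG (0.67 ± 0.10, adjusted p = 4.2e-04). Under the fold threshold, *Timp3* was also higher with miR-125b (0.36 ± 0.09, adjusted p = 0.0053) and Trim A (0.48 ± 0.13, adjusted p = 0.017). With Trim AGU it was at 0.26 ± 0.28 (adjusted p = 0.49). *Timp2* fell with Trim AG (-0.88 ± 0.09, adjusted p = 4.8e-05), and with Trim AGU it was at -0.56 ± 0.11 (adjusted p = 0.012), under the fold threshold but called at -0.60 without Hypoxia Trim AGU 1. Also under the fold threshold, *Timp2* was at -0.34 ± 0.03 with miR-125b (adjusted p = 9.5e-07) and -0.36 ± 0.04 with Plus A (adjusted p = 3.0e-05). With Trim A it was at -0.50 ± 0.08 (adjusted p = 0.0010), likewise under it. *Timp1* was not called with any mimic. The direction of these changes was therefore downward for the enzymes called and mixed for the inhibitors.

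In counts, 0 of the 6 tested members were higher and 1 lower with miR-125b, where 9.43% and 12.5% of the 15143 genes tested were called higher and lower. With Plus A 1 member was higher and 1 lower, beside 10.5% and 14.4% of 15159 genes. With Trim A 0 were higher and 3 lower, beside 12.4% and 15.7% of 15183 genes. Trim AG had 1 higher and 4 lower, beside 17.0% and 20.2% of 15315 genes, and Trim AGU 0 higher and 2 lower, beside 11.4% and 12.4% of 15026 genes. With miR-125b, 1 of 6 is close to the background in the lower direction. With Trim AG 4 of 6 is above it, in members chosen with earlier results of these data known. These 5 comparisons share the MC libraries.

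**Figure D2:**
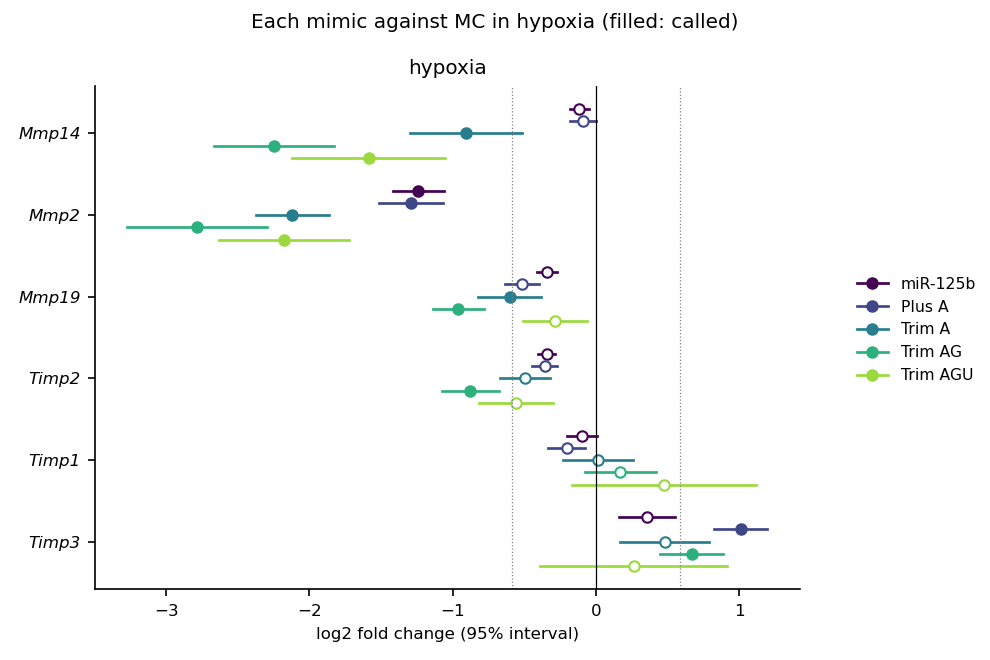
Log2 fold change with its 95% interval for 6 members, each mimic minus MC in hypoxia (edgeR). Filled points were called, dotted lines mark a fold change of 1.5, and Mmp2 is at or below -1.24 with every mimic, while Timp3 reaches 1.01 with Plus A.

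In normoxia, the authors' group means of Plus A and MC, on their own normalized scale and with no values per library used here, were 188.5 and 474.1 for *Mmp2*, 14400 and 12530 for *Mmp14* and 1682 and 3157 for *Mmp19*. For the inhibitors they were 4211 and 4169 for *Timp1*, 19720 and 22530 for *Timp2* and 502 and 318.2 for *Timp3*. *Mmp2* was lower and *Timp3* higher in Plus A than in MC in these means, as they were in hypoxia. The means of Plus A include the replicate 1 library in doubt, and no test was possible on them.

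The isomiRs were next compared with canonical miR-125b at the same dose and time, in 4 pairs in hypoxia and 4 in normoxia. In hypoxia Trim AG, which lacks a pair of 3′ bases, had the most members called. Relative to miR-125b, *Mmp14* fell by 2.14 ± 0.18 (adjusted p = 8.7e-05), *Mmp2* by 1.56 ± 0.23 (adjusted p = 0.0012) and *Mmp19* by 0.63 ± 0.08 (adjusted p = 4.4e-04). *Timp2* was at -0.54 ± 0.08 (adjusted p = 0.0015), under the fold threshold, and was called at -0.62 without Hypoxia Trim AG 1.

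With Trim AGU in hypoxia, *Mmp14* fell by 1.48 ± 0.22 relative to miR-125b (adjusted p = 0.021). This call was lost without Hypoxia Trim AGU 3 (-1.42, adjusted p = 0.11) and without miR-125b 1 (-1.48, adjusted p = 0.10), 2 (-1.47, adjusted p = 0.12) or 3 (-1.47, adjusted p = 0.11). *Mmp2* was at -0.95 ± 0.20 (adjusted p = 0.053), and it was called without Hypoxia Trim AGU 1 (-1.06, adjusted p = 0.042) or 2 (-0.79, adjusted p = 0.0073) and by DESeq2 (-0.93, adjusted p = 6.1e-04). Adjusted p-values of Trim AGU thus crossed 0.05 on leaving out 1 of several libraries, which also left fewer libraries to test. The changes kept their direction.

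With Trim A in hypoxia, *Mmp2* fell by 0.88 ± 0.13 relative to miR-125b (adjusted p = 0.025), a call lost without Trim A 2 (-0.82, adjusted p = 0.089) or 3 (-0.85, adjusted p = 0.12), or without miR-125b 1 (-0.82, adjusted p = 0.14), 2 (-0.87, adjusted p = 0.14) or 3 (-0.95, adjusted p = 0.11). *Mmp14* was at -0.79 ± 0.17 (adjusted p = 0.060). It was called without Hypoxia Trim A 1, its highest library (-1.05, adjusted p = 2.3e-07), and by DESeq2 (-0.79, adjusted p = 1.0e-04). Plus A, which adds a base, had 1 member called against miR-125b, *Timp3*, with a rise of 0.65 ± 0.07 (adjusted p = 0.0010). *Mmp19* was at -0.18 ± 0.05 (adjusted p = 0.040) with no overlap, under the fold threshold. For *Mmp14* the 95% interval of the difference between Plus A and miR-125b in hypoxia was -0.06 to 0.10, and for *Mmp2* it was -0.32 to 0.22.

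By count in hypoxia, Plus A had 1 of 6 tested members higher and 0 lower than miR-125b, where 0.707% and 1.32% of 15134 genes were called higher and lower. Trim A had 0 higher and 1 lower, beside 0.457% and 0.417% of 15115 genes. Trim AG had 0 higher and 3 lower, beside 7.85% and 11.5% of 15305 genes. Trim AGU had 0 higher and 1 lower, beside 1.83% and 1.93% of 15051 genes. The count of Trim AG in the lower direction was above the background, in members chosen with earlier results of these data known. The single calls of Trim A and Trim AGU were lost on leaving out 1 of several libraries, as given above, and nothing is read from their counts. Summed fibroblast markers, mostly *Col1a1*, were at 28620 to 30330 CPM with miR-125b, with *Pdgfra* below 1 CPM in all libraries. They were lower with the Trim isomiRs, at 13720 to 25960 CPM with Trim A, 6382 to 13410 CPM with Trim AG and 10680 to 19640 CPM with Trim AGU. These markers were also lower with Plus A (25740 to 27270 CPM), where *Mmp14* and *Mmp2* overlapped miR-125b. The same markers were at 17820 to 18470 CPM with MC, where *Mmp14* and *Mmp2* were higher than with miR-125b. The part of these markers in the fall of *Mmp14* and *Mmp2* was not tested.

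In normoxia only *Mmp14* was called. It fell by 1.36 ± 0.07 with Trim AG relative to miR-125b (adjusted p = 5.7e-06) and by 0.74 ± 0.08 with Trim AGU (adjusted p = 3.5e-04), and was at -1.37 and -0.75 without Normoxia miR-125b 1, called in both. Summed fibroblast markers in normoxia were at 27470 to 30410 CPM with miR-125b and 28280 to 28520 CPM with Trim A. They were lower with Trim AG (17610 to 19410 CPM) and Trim AGU (19700 to 22690 CPM), and their part was not tested. With Trim A *Mmp14* was at -0.30 ± 0.05 (adjusted p = 0.018), under the fold threshold. *Mmp19* with Trim AG was at -0.52 ± 0.12 (adjusted p = 0.0085), and it was called without Normoxia Trim AG 2 (-0.62, adjusted p = 0.0075) or without Normoxia miR-125b 1 (-0.65, adjusted p = 5.4e-04). *Mmp2* with Trim AG was at -0.49 ± 0.17 (adjusted p = 0.045) and was called without Normoxia Trim AG 2 (-0.64, adjusted p = 0.022), while without Normoxia miR-125b 1 it was at -0.46 (adjusted p = 0.083). No inhibitor was called in normoxia. *Mmp14* was thus called with each of Trim AGU and Trim AG in either oxygen condition. The call of Trim AGU in hypoxia was lost on leaving out 1 of several libraries, as given above.

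In counts, Plus A had 0 members higher and 0 lower than miR-125b in normoxia, where edgeR called 0.0% of 14781 genes in either direction, 404 of them having an unadjusted p below 0.05, and DESeq2 called 1 gene. Without replicate 1 of both groups, 166 genes and 0 members were called, with *Mmp19* at -0.34 ± 0.06 (adjusted p = 0.013) and *Mmp14* at -0.01 ± 0.05. For Trim A 0 members were called, beside 0.367% higher and 0.0475% lower of 14732 genes. Members called with Trim AG were 0 higher and 1 lower, beside 7.58% and 6.36% of 14864 genes, and with Trim AGU 0 higher and 1 lower, beside 6.22% and 5.16% of 14720 genes.

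**Figure D3:**
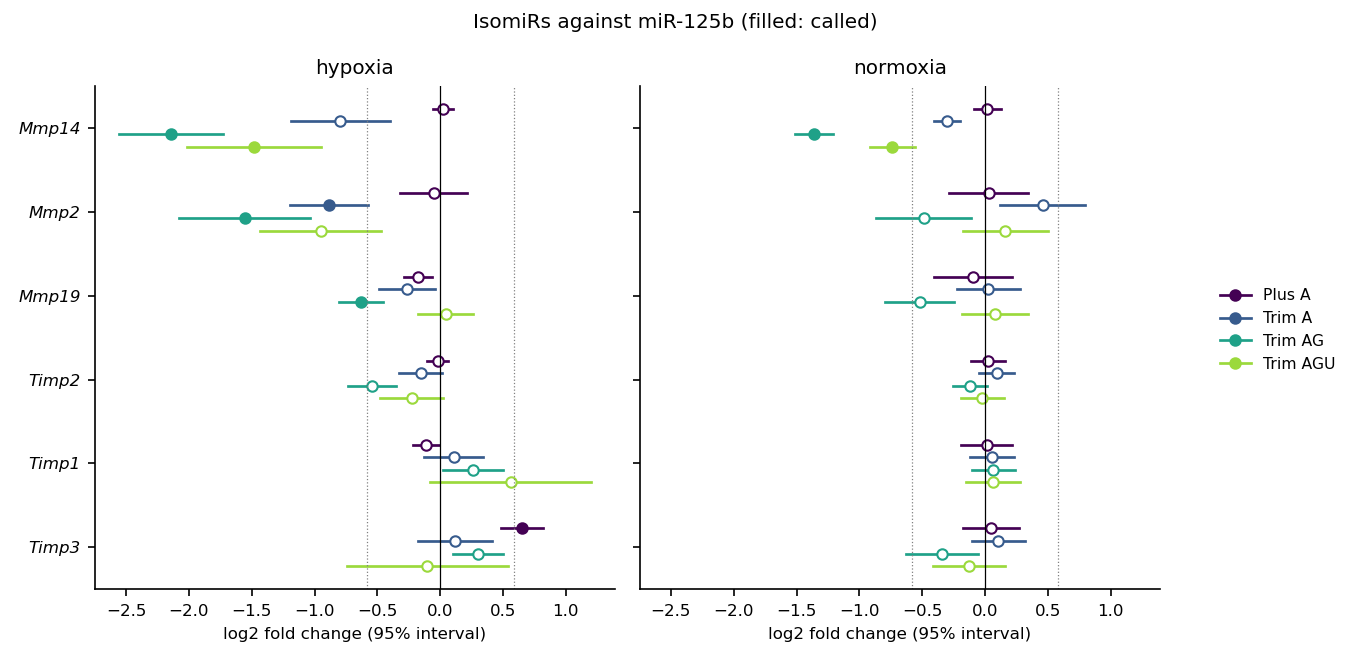
Log2 fold change with its 95% interval for 6 members, each isomiR minus miR-125b, in hypoxia (left) and normoxia (right), from edgeR. Filled points were called and dotted lines mark a fold change of 1.5; with Trim AG Mmp14 is at -2.14 in hypoxia and -1.36 in normoxia, and Plus A lies near 0 except for Timp3 in hypoxia (0.65).

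Whether an isomiR differed from miR-125b by another amount in hypoxia than in normoxia was tested with an interaction term in fits of 12 libraries. With Trim AG, *Mmp14* had an interaction of -0.79 ± 0.20 on the log2 scale (adjusted p = 0.015), *Mmp2* one of -1.08 ± 0.30 (adjusted p = 0.021) and *Timp3* one of 0.63 ± 0.16 (adjusted p = 0.013). Without Normoxia miR-125b 1 these were -0.78, -1.11 and 0.60, all called. For *Mmp2* the call was lost without Hypoxia Trim AG 3 (-1.01), Hypoxia miR-125b 1 (-1.01), Normoxia Trim AG 2 (-0.93) or Normoxia miR-125b 2 (-0.995), at adjusted p-values of 0.050 to 0.061. For *Timp3* the interaction dropped under the fold threshold without Hypoxia miR-125b 1 (0.58) or Normoxia Trim AG 1 (0.54). With Trim A, *Mmp2* had an interaction of -1.33 ± 0.20 (adjusted p = 0.018), lost at adjusted p-values of 0.053 to 0.066 without Hypoxia Trim A 3, Hypoxia miR-125b 2 or 3, Normoxia Trim A 2, or Normoxia miR-125b 1 or 2. *Mmp14* with Trim A was at -0.48 ± 0.19 (adjusted p = 0.16), and it was called without Hypoxia Trim A 1 (-0.74, adjusted p = 1.3e-05). *Mmp2* with Trim AGU was at -1.08 ± 0.24 (adjusted p = 0.061), called without Hypoxia Trim AGU 1 (-1.18, adjusted p = 0.015) or 2 (-0.96, adjusted p = 0.021), and *Mmp14* was at -0.71 ± 0.24 (adjusted p = 0.14), called without Hypoxia Trim AGU 1 (-0.98, adjusted p = 0.0065). *Timp3* with Plus A was at 0.60 ± 0.12 (adjusted p = 0.078, and 0.0032 by DESeq2), and at 0.50 (adjusted p = 0.090) without the replicate 1 libraries in doubt.

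The interaction was called for 0 of 6 tested members with Plus A, where 0.0193% of 15569 genes were called in either direction, and for 1 of 7 with Trim A, beside 0.605% of 15534 genes. It was called for 3 of 7 with Trim AG, beside 11.3% of 15603 genes, and for 0 of 7 with Trim AGU, beside 0.966% of 15525 genes. *Mmp9* was the added member in the fits of 7, and it was called in none.

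Hypoxia was compared with normoxia under each of the 5 mimics that had counts in both. *Timp1* fell in hypoxia by 1.10 ± 0.07 with miR-125b (adjusted p = 2.8e-06), by 1.23 ± 0.07 with Plus A (adjusted p = 1.3e-06), by 1.04 ± 0.11 with Trim A (adjusted p = 1.1e-04) and by 0.89 ± 0.11 with Trim AG (adjusted p = 1.5e-04). With Trim AGU it was at -0.58 ± 0.27 (adjusted p = 0.14) with all libraries and at -0.99 (adjusted p = 2.2e-04) without Hypoxia Trim AGU 2. Without Normoxia miR-125b 1 and Normoxia Plus A 1 the changes with these mimics were -1.02 and -1.31, both called. The interaction of oxygen and mimic was called for *Timp1* with no isomiR.

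*Mmp14* was lower in hypoxia in every library of every mimic. It fell by 0.96 ± 0.17 with Trim A (adjusted p = 0.0018) and by 1.23 ± 0.18 with Trim AG (adjusted p = 4.6e-04). With Trim AGU the change was -1.20 ± 0.23 (adjusted p = 0.0086), also called. With miR-125b and Plus A it was at -0.48 ± 0.04 and -0.47 ± 0.05, under the fold threshold at adjusted p-values of 1.3e-05 and 3.9e-05. *Mmp2* went the other way with the full-length mimics, rising by 0.80 ± 0.13 with miR-125b (adjusted p = 6.0e-04) and by 0.72 ± 0.14 with Plus A (adjusted p = 0.0017), or 0.83 and 0.76 without the replicate 1 normoxia library of each, both called. With Trim A *Mmp2* was at -0.53 ± 0.16 (adjusted p = 0.024), and it was called as lower without Hypoxia Trim A 1 (-0.63, adjusted p = 0.0086) or Normoxia Trim A 1 (-0.65, adjusted p = 0.017). With each of Trim A, Trim AG and Trim AGU the hypoxia and normoxia libraries of *Mmp2* overlapped.

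*Mmp19* was higher in hypoxia in every library of every mimic, and its changes of 0.21 to 0.49 stayed under the fold threshold. *Timp3* rose with Trim AG by 0.66 ± 0.12 (adjusted p = 0.0016), or 0.57 without Normoxia Trim AG 1. With Plus A *Timp3* was at 0.59 ± 0.09 (adjusted p = 3.9e-04), just past the fold threshold, and it lay under it without Hypoxia Plus A 3 (0.56), without Normoxia Plus A 1 (0.52) and by DESeq2 (0.58). *Timp2* was called under no mimic.

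In counts, 1 of 6 tested members was higher and 1 lower in hypoxia with miR-125b, where 9.34% and 11.5% of 15028 genes were called higher and lower. Plus A had 2 higher and 1 lower, beside 10.0% and 12.8% of 15032 genes. Trim A had 0 higher and 2 lower, beside 12% and 14.5% of 14973 genes. Trim AG had 1 higher and 2 lower, beside 15.0% and 17.8% of 15256 genes, and Trim AGU 0 higher and 1 lower, beside 13.6% and 13.4% of 14811 genes. With 6 members, 1 call is about the share of the background.

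**Figure D4:**
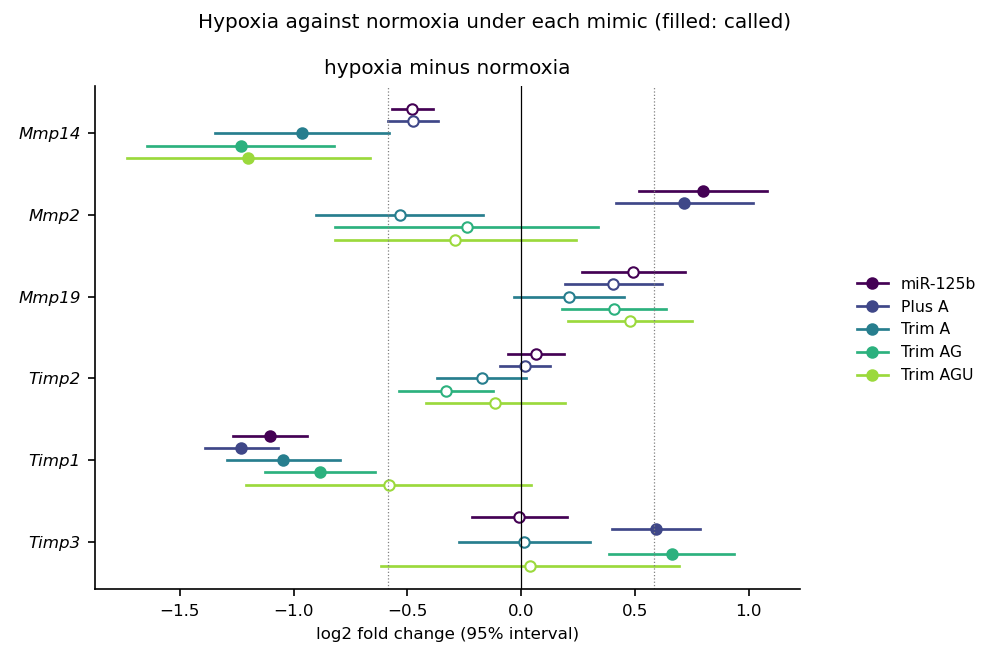
Log2 fold change with its 95% interval for 6 members, hypoxia minus normoxia under each mimic (edgeR). Filled points were called and dotted lines mark a fold change of 1.5; Timp1 lies between -0.58 and -1.23, and Mmp2 is at 0.80 with miR-125b and -0.53 with Trim A.

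*Mmp3*, *Mmp9*, *Mmp10* and *Mmp13*, which include the stromelysins *Mmp3* and *Mmp10*, the gelatinase *Mmp9* and the collagenase *Mmp13*, were at or near the limit of counting. *Mmp3* had at most 3 counts in a library and 0 in 28 of 33, and *Mmp10* at most 2 counts and 0 in 29. *Mmp13* had at most 6 counts, in Hypoxia miR-125b 2, and 0 in 18 libraries. *Mmp9* had at most 14 counts, in Normoxia miR-125b 2, and 0 in 2 libraries. Its counts in hypoxia were 1, 0 and 1 with MC and 7, 10 and 12 with miR-125b, which do not overlap, but *Mmp9* did not pass the filter. In the fits that keep it, *Mmp9* was called higher with miR-125b than with MC in hypoxia both with no filter (adjusted p = 0.0023) and with all libraries in 1 fit (adjusted p = 0.010), and no fold is given because MC held 2 counts in all. Trim AG against miR-125b in hypoxia was called, as lower, with no filter (adjusted p = 0.032) and not with all libraries in 1 fit (adjusted p = 0.059). It was called in 2 of the 4 fits without 1 library that kept *Mmp9* (adjusted p = 0.029 to 0.060). Those 4 fits kept *Mmp9* through its counts with miR-125b, as Trim AG held 2, 2 and 5, and nothing is read from them. No other pair of groups was called for *Mmp9* in any fit that kept it. The other 3 of these members were called in none of the alternatives run. Counts of 0 allow up to 3 counts in a library, and this covers counting error only.

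The promoters of 6 members were found in RefSeq's table for GRCr8, as windows from 250 bases before to 50 after the gene start. *Mmp2*, *Mmp9*, *Mmp14* and *Mmp19* had no entry there, and their promoters were not examined. The windows found were searched on both strands for the AP-1 motif TGAGTCA, which also reads as TGACTCA, and for the HIF motif ACGTG, which also reads as CACGT. AP-1 is the factor pair of *Fos* and *Jun* known to drive inducible MMP genes. Of all 33469 promoters of this length, 4.63% held the AP-1 motif and 19.3% the HIF motif. *Mmp3*, *Mmp10* and *Mmp13* each held 1 AP-1 match, starting 71, 61 and 66 bases before the gene start, and *Mmp13* held 2 HIF matches. The windows of *Timp1*, *Timp2* and *Timp3* held neither motif. The sequences of the 3 nearly silent members and of *Timp1*, which fell in hypoxia, follow with the matches in capitals. They are *Mmp3* (chr8:12925031-12925330, plus strand), *Mmp10* (chr8:12974457-12974756, plus strand), *Mmp13* (chr8:12782579-12782878, plus strand) and *Timp1* (chrX:3771073-3771372, minus strand).
Mmp3 promoter: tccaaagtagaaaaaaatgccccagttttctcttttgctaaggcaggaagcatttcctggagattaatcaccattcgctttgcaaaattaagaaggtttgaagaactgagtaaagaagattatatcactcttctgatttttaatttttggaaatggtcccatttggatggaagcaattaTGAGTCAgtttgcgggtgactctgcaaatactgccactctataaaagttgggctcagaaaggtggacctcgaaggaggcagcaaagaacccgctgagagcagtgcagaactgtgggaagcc
Mmp10 promoter: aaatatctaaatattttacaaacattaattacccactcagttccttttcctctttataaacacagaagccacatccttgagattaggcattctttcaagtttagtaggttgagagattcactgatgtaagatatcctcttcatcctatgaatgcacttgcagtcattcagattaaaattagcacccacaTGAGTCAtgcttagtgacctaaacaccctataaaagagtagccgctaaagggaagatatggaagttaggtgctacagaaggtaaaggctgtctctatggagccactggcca
Mmp13 promoter: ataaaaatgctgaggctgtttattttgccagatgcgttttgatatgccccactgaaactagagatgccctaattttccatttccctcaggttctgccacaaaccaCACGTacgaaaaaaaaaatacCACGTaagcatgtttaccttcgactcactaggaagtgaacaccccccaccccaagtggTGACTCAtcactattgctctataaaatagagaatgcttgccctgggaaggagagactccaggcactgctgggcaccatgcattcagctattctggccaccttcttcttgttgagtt
Timp1 promoter: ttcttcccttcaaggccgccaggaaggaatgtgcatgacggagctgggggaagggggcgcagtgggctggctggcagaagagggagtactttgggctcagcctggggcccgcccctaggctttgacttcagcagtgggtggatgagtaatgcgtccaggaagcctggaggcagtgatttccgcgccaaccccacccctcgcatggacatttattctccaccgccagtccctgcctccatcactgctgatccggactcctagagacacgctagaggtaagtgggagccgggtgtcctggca

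A match is a description of letters and not a binding site, and no match says only that these letters are not in the window. The deposited tables place the genes on a build that is not named in them, with *Mmp14* (ENSRNOG00000010947) on chromosome 15 from 33074441 to 33083655 and *Mmp2* (ENSRNOG00000016695) on chromosome 19 from 15542765 to 15570611.

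Genes that work with MMPs were described from 5 lists. Their counts stand against shares of all genes that, over the mimics, were 12.4% to 20.2% lower and 9.43% to 17.0% higher against MC in hypoxia. Against miR-125b these shares were 0.417% to 11.5% lower and 0.457% to 7.85% higher in hypoxia, and up to 6.36% lower and 7.58% higher in normoxia. Between hypoxia and normoxia they were 11.5% to 17.8% lower and 9.34% to 15.0% higher. In lists of 4 to 12 genes a call or 2 more or fewer spans these shares, and nothing is read from such counts. Of the other MMPs and *Timp4*, 12 of 17 were in the tables and 4 were tested, *Mmp15*, *Mmp16*, *Mmp23* and *Mmp24*, while Mmp1a, *Mmp11*, *Mmp25*, *Mmp27* and *Mmp28* were not analysed here. Against MC in hypoxia, 0 to 1 of these 4 were lower with 4 of the mimics and 3 with Trim AG, with 0 higher. *Mmp15*, another membrane-type MMP, was at 32.4 ± 1.44 CPM with MC and 6.37 ± 2.63 CPM with Trim AG, a change of -2.28 ± 0.24 (adjusted p = 5.9e-05). *Mmp24*, also membrane-type, was at 16.8 ± 0.89 and 6.90 ± 0.53 CPM, a change of -1.22 ± 0.11 (adjusted p = 2.5e-05). Relative to miR-125b 0 were higher and 0 to 2 lower in hypoxia, and 0 higher and 0 to 1 lower in normoxia. In hypoxia against normoxia 0 to 2 were higher and 0 to 1 lower. *Mmp15* rose in hypoxia with miR-125b from 6.83 ± 0.87 to 23.0 ± 0.83 CPM (1.67 ± 0.11, adjusted p = 2.4e-06) and with Plus A from 6.67 ± 1.10 to 26.4 ± 1.07 CPM (1.87 ± 0.13, adjusted p = 3.0e-06).

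The 18 listed ADAM and ADAMTS proteases, metalloproteinases related to MMPs, were a choice from these families, made with earlier results known. All 18 were tested. Against MC in hypoxia 11 were lower with miR-125b, 15 with Trim AG, 14 with Trim AGU and 13 each with Plus A and Trim A, and 0 were higher. The list's median log2 change was -0.78 with miR-125b and -1.38 with Trim AG, where the median of all genes was 0.00 in both. *Adamts4* and *Adamts15*, which cleave proteoglycans, and *Adamts14*, a procollagen peptidase, changed most. *Adamts4* was at 44.9 ± 2.32 CPM with MC and 12.3 ± 0.36 CPM with miR-125b, a change of -1.84 ± 0.06 (adjusted p = 1.5e-09), and at 3.47 ± 0.79 CPM with Trim AG (-3.63 ± 0.14, adjusted p = 5.6e-07). Relative to miR-125b in hypoxia, 3 of the 18 were lower with each of Plus A, Trim A and Trim AGU and 11 with Trim AG, and 0 higher. In normoxia 0 to 4 were higher and 0 to 2 lower than with miR-125b. In hypoxia against normoxia 6 to 11 were lower and 0 to 2 higher, with *Adamts9* at 29.2 ± 6.20 and 148.4 ± 10.9 CPM under Trim AG (-2.34 ± 0.14, adjusted p = 3.0e-06).

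Of 12 genes for the activation of pro-MMPs and the plasminogen system, 10 were tested. Against MC in hypoxia 3 to 4 were lower and 0 to 3 higher per mimic. *Plat*, the tissue plasminogen activator, was at 156.1 ± 18.4 CPM with MC and 58.1 ± 4.96 CPM with miR-125b (-1.39 ± 0.08, adjusted p = 1.3e-07), while *Plg*, plasminogen itself, was at 0.705 ± 0.272 and 4.03 ± 0.22 CPM (2.54 ± 0.25, adjusted p = 5.5e-06). Relative to miR-125b 0 to 1 were higher and 0 to 3 lower in hypoxia, and 0 to 2 each in normoxia. In hypoxia against normoxia 1 to 2 were higher and 3 to 4 lower. *Furin*, which cleaves pro-*Mmp14*, was higher with Trim AG than with miR-125b in normoxia, at 248.4 ± 7.25 and 147.6 ± 3.81 CPM (0.71 ± 0.05, adjusted p = 2.1e-05).

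Of 8 cell surface regulators 6 to 7 were tested. Against MC in hypoxia 1 to 3 were lower and 0 to 1 higher. *Lrp1*, the endocytic receptor that clears MMP and TIMP complexes, was at 661.5 ± 309.5 CPM with Trim AG and 1527 ± 84.5 CPM with miR-125b in hypoxia (-1.20 ± 0.27, adjusted p = 0.0090). *Reck*, a membrane-anchored MMP inhibitor, was at 41.1 ± 10.1 and 71.3 ± 0.83 CPM in the same groups (-0.78 ± 0.14, adjusted p = 0.0036). Relative to miR-125b 0 to 3 were lower in hypoxia and 0 to 2 in normoxia, with 0 higher. In hypoxia against normoxia 3 were lower under each mimic and 0 to 1 higher, and *Reck* was lower under all 5 mimics. *Cd44*, which docks MMPs at the cell surface, was higher with Trim AG than with MC in hypoxia, at 368.8 ± 12.5 and 237.6 ± 4.16 CPM (0.70 ± 0.07, adjusted p = 5.8e-05).

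All 12 listed transcription factors known to act on MMP promoters were tested. Against MC in hypoxia 2 to 4 were lower and 0 to 4 higher, and *Runx2*, a driver of *Mmp13*, was lower with all 5 mimics, at 69.5 ± 3.62 CPM with MC and 33.6 ± 0.53 CPM with miR-125b (-1.01 ± 0.05, adjusted p = 2.3e-08). *Jun* was at 207.5 ± 5.03 and 114 ± 3.10 CPM (-0.83 ± 0.03, adjusted p = 6.6e-09). With Trim AG relative to miR-125b in hypoxia, the ETS factors *Etv4* (0.99 ± 0.10, adjusted p = 2.2e-04) and *Ets1* (0.72 ± 0.11, adjusted p = 0.0012) were higher while *Mmp14* was lower. Relative to miR-125b 0 to 2 were higher and 0 to 1 lower in hypoxia, and 0 to 3 higher and 0 lower in normoxia. In hypoxia against normoxia 0 to 2 were higher and 3 to 5 lower. The interaction of isomiR and oxygen was called, with Trim AG, for 9 of the 18 ADAM and ADAMTS genes, all lower, and for 1 to 2 genes of each other list.

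**Figure D5:**
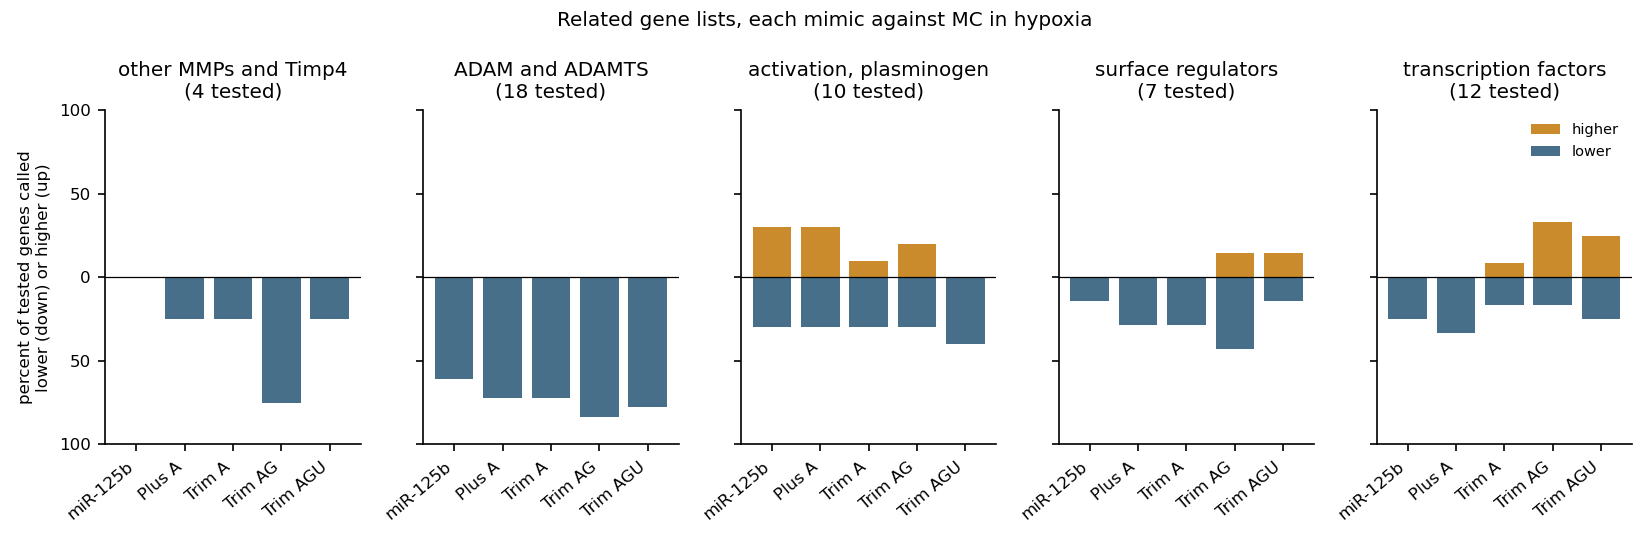
Percent of the tested genes of 5 lists called lower (bars down) or higher (bars up) with each mimic against MC in hypoxia, by edgeR. Of 18 ADAM and ADAMTS genes, 11 to 15 were lower and 0 higher, while the other lists hold calls in fewer of their genes or in both directions.

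*Mmp2* and *Mmp14* had the widest ranges of group means among the members. Over the 11 group means of log2(CPM + 1), the genes most like *Mmp2* among 11278 compared were *Dll1* (r = 0.99), *Ercc5* (r = 0.98) and *Neurl1* (r = 0.98). Those most like *Mmp14* were *Por* (r = 0.98), *Mapre3* (r = 0.98) and *Rab23* (r = 0.97). Over the 33 libraries *Dll1* and *Por* stayed first, with r of 0.97 and 0.96. The points share libraries, depth and the mimic groups, and these values are a description.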

How the data were processed

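Poly-A RNA of H9C2 cells was sequenced from non-stranded libraries, so reads of a gene and of an antisense or overlapping gene cannot be told apart. The deposited tables hold read counts per gene and FPKM values that the authors made per library, the authors' group means as a normalized signal, and columns of the authors' own fold changes and p-values, which were not used. The submitters' processing notes name HISAT2 and StringTie, with no role or version, and the genome build of the tables is not given in the sources used here. Counts of 33 libraries were joined by gene identifier from 11 tables, with an unlisted gene taken as 0, and none of 680733 counts listed more than once conflicted. Normoxia MC had no counts per library here and was not analysed beyond the authors' means.

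The main test was edgeR 4.0.16 (R 4.3.3), a quasi-likelihood test with TMM scaling and filterByExpr on the libraries of the groups compared, with Benjamini-Hochberg adjustment over all genes tested. It was tested on simulated data. Calls needed an adjusted p below 0.05 together with a fold change of 1.5 or more. CPM in the text scales the counts by the library's total. Alternatives were DESeq2 1.42.0, its size factors, library size alone, no filter, other fold thresholds, all libraries in 1 fit, a replicate block and leaving out each library. No sign of pairing between same-numbered replicates was seen, since in 0 of 18 comparisons did every pair's deviations correlate above 0.1 (range -0.27 to 0.11). This rule cannot show that they were unpaired, and the replicate block was run for that reason. In the lists, the called genes named were those with the largest changes, up to 3 per list and comparison. 1 gene of a list is not reported here by name. The software was Python 3.11.15 with matplotlib 3.10.9, numpy 2.4.6 and pandas 2.3.3. The members and lists were chosen with earlier results of these data known.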

Additional observations from a re-analysis of the deposited data

Results flagged for a closer look

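For 4 values the difference between an isomiR and miR-125b was called as unlike in hypoxia and in normoxia, by the interaction term of edgeR's quasi-likelihood test over all genes. Mmp2 with Trim A had an interaction of -1.33 on the log2 scale, with 5.60 to 7.11 CPM in Hypoxia Trim A and 7.02 to 9.34 CPM in Normoxia Trim A. With miR-125b, Mmp2 was at 10.36 to 12.48 CPM in hypoxia and 5.53 to 6.74 CPM in normoxia, and this rise enters the interaction. Mmp2 with Trim AG had one of -1.08. Mmp14 with Trim AG had one of -0.79, lower than with miR-125b in both conditions and more so in hypoxia. Timp3 with Trim AG had one of 0.63. Of 12 fits without 1 library, Mmp2 was called in 6 with Trim A and in 8 with Trim AG. With Trim AG, Timp3 was called in 10 of these fits and Mmp14 in all 12.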

How the results depend on the processing

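The members' calls numbered 13 against MC, 6 for isomiRs against miR-125b in hypoxia, 2 in normoxia, 11 for hypoxia against normoxia and 4 for the interaction. With a fold change of at least 2 they numbered 8, 3, 1, 5 and 2, and with no fold threshold 23 against MC, 5 in normoxia and 19 for hypoxia against normoxia. Leaving out 1 library gave 12 to 14, 4 to 7, 2 to 4, 10 to 12 and 2 to 6, with 4 in normoxia without Normoxia Trim AG 2 and 2 for the interaction without Hypoxia miR-125b 1 or Normoxia miR-125b 2. With a replicate block they numbered 13, 4, 2, 11 and 3, the block ending the calls of Mmp2 with Trim A against miR-125b in hypoxia (adjusted p = 0.11), Mmp14 with Trim AGU there (adjusted p = 0.065) and the Mmp2 interaction of Trim A (adjusted p = 0.067), and no other. The Timp3 interaction with Trim AG was not called with all libraries in 1 fit (adjusted p = 0.072) or with library size alone (0.58). Library size alone moved the median of all genes by -0.15 for Trim AGU against MC, -0.11 for Trim AGU against miR-125b in hypoxia, 0.12 for hypoxia against normoxia with Plus A and -0.11 for the interaction of Trim AGU. Of 2064 alternative values, 68 changed sign, 0 of them of a called value. The causes were not tested. Depth limited Mmp3, Mmp9, Mmp10 and Mmp13, which did not pass the filter. With no filter the calls numbered 14, 8, 2, 10 and 4, Mmp9 among them against MC with miR-125b and in hypoxia for Trim AG.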
